A study of Mus musculus with 8 samples.

Results

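Krüppel-like factors are transcription factors that bind GC-rich and CACCC-containing DNA through zinc fingers at their C terminus. Klf2, Klf3, Klf4, Klf5, Klf6, Klf7, Klf9, Klf10 and Klf13 were examined through every probe set that carries their symbol, which gave 26 of the 22626 non-control probe sets on the array, for 9 of the 12393 genes these name singly. No probe set of these 9 genes carried several symbols. Members of the family differ mainly outside the zinc fingers, where they recruit corepressors or coactivators, and in lymphoid cells they are known for setting quiescence, homing and the response to growth factors. Klf9 is known as a gene induced by glucocorticoid and thyroid hormone that restrains proliferation.

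The cells were FL5.12, an interleukin-3-dependent mouse pro-B line. The parental group was this line, stably transfected with Bfl-1DC, where Bfl-1 is a survival protein of the Bcl-2 family, and with p53DD, a dominant-negative fragment of p53. The tumor group came from the spleens of 3 nude mice that had received these same cells by vein and had developed leukemia or lymphoma, so both transgenes were shared by all groups and no group lacked them. Each of the 4 sources was measured on 2 Affymetrix Mouse Genome 430A 2.0 arrays, numbered 1 and 2, and the aim given was to find expression changes of tumorigenesis. The mouse strain and age, and whether the line was a single clone, are not stated in the labels. Parental cells were grown with supernatant of WEHI-3B cells as the source of interleukin-3. The same culture text stands on the tumor labels and does not settle if tumor cells went through culture ahead of extraction. Nude mice lack most T cells and keep other blood cells, so that a splenic tumor can hold host RNA.

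The arrays had median signals between 32.5 and 37.9. Of 11 pro-B markers on the array, only Cd79a and Cd79b exceeded the 40th percentile of signal on both parental arrays, while Pax5, Ebf1, Rag1, Rag2, Dntt and Vpreb1 did not. The summed signal of the 11 was 227 to 230 on the parental arrays and 456 to 627 on the tumor arrays. The summed signal of 12 neutrophil markers was 261 to 814 on the parental arrays and 3823 to 10370 on the tumor arrays, that of 6 eosinophil markers 38.1 to 44.1 and 3642 to 8221, that of 9 T cell markers 285 to 387 and 1030 to 2733, and that of 14 macrophage and monocyte markers 198 to 908 and 829 to 3207. Highest in the tumors were Mpo, Epx, Cd3g and Ccr2 in these 4 lists. The sums rested on part of each list. On all tumor arrays 5 neutrophil, 2 eosinophil, 3 T cell and 7 macrophage and monocyte markers exceeded the 40th percentile. On both parental arrays 2, 0, 3 and 3 did. In the tumors Cd3e read 3.81 to 12.2, and Camp, Ccr3 and C1qa read at most 2.56, 9.25 and 3.09. The sums of NK cell, erythroid, platelet, endothelial, stroma and mature B cell markers overlapped between parental and tumor arrays. That of NK cell markers was 647 to 3840 and 122 to 2153, and that of mature B cell markers 269 to 651 and 140 to 506. The part of these markers in the results on Krüppel-like factors was not tested. The labels do not tie the 2 parental arrays to separate cultures, and p-values may then measure technical spread. In bulk RNA, fewer cells of a type and less RNA per cell cannot be told apart.

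The 9 genes were selected on their measured differences between tumors and parental cells, in particular the lower Klf9 signal in the tumors. Their differences between tumors and parental cells are therefore a description, given as a change of log2(signal + 16) with its SE where the probe set passed the filter and with no test. Differences between the tumors, and between first and second arrays, were not used in that choice and were tested. The filter asked for a signal above the array's 40th percentile (15.6 to 20.7) on at least 2 of the 8 arrays, and 16 of the 26 probe sets passed.

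The promoters of Klf9, whose signal separated tumors from parental cells, and of Klf6, whose signal followed the array number, are shown from 250 bases before to 50 after the transcription start. They are RefSeq sequences of build GRCm38.p6, both on the plus strand, at chr19:23140976-23141275 and chr13:5861239-5861538. Capitals mark 4 motifs on either strand. The GC box was searched as GGGCGG. The box bound by many Krüppel-like factors was searched as CACCC. The core of the cyclic AMP response element was searched as TGACG, and the box bound by NF-Y was searched as CCAAT.
Klf9: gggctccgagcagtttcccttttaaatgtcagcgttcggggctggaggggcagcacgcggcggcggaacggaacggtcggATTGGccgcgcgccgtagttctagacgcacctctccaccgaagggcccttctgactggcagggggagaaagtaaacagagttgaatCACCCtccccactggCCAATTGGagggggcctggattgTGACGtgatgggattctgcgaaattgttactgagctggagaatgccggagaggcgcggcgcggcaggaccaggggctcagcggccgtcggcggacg
Klf6: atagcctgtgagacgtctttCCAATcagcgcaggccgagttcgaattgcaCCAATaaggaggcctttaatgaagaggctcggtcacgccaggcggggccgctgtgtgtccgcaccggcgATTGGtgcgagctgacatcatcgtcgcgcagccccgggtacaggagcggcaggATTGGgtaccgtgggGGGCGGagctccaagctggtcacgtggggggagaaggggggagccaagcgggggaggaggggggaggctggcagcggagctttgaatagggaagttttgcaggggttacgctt
The Klf9 window held 0 matches to the GC box, 1 to CACCC, 1 to TGACG and 3 to CCAAT, of which the adjoining pair overlap each other. The Klf6 window held 1 GC box and 4 CCAAT matches, and 0 matches to the other motifs. In neither window did matches to different motifs share a base. Of 32851 promoter windows of the same length, 35.7% held the GC box, 57.5% CACCC, 20.8% TGACG and 37.4% CCAAT. The matches are a description of these letters. Promoters were found for 7 of the 9 genes, those without an entry being Klf5 and Klf10.

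Klf9 was lower in every tumor than in parental cells on most, and not all, of its probe sets. On 1428288_at, the Klf9 probe set with the highest mean, the signal was 119.6 and 176 on the parental arrays. It was 8.47 and 1.70 for tumor 1, 2.30 and 3.22 for tumor 2, and 12.6 and 1.21 for tumor 3. Both parental arrays thus lay far above all 6 tumor arrays, and none of the tumor arrays exceeded the 40th percentile. The change was -2.95, -3.10 and -2.86 in tumors 1, 2 and 3 and -2.97 ± 0.20 (SE) over the 3 tumors. The median change of all 14893 probe sets that passed the filter was 0.008. With the tumor signals this low, the size of the change depends on the constant added, and it was -4.96 with 1 and -1.61 with 64 in place of 16. Within arrays of number 1 it was -2.53 and within arrays of number 2 it was -3.41, a comparison chosen after seeing the data.

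On 1456341_a_at the parental arrays stood at 49.0 and 67.7. The tumor arrays stood at 1.57 and 5.96 for tumor 1, 1.41 and 3.88 for tumor 2 and 4.69 and 10.0 for tumor 3. The groups again did not overlap, and the change was -1.85 ± 0.19. On 1428289_at, which is annotated to the same transcript accession as 1428288_at, the parental arrays differed from each other, at 17.6 and 47.9, and the tumor arrays lay between 1.10 and 8.68. The change there was -1.32 ± 0.28. On 1436952_at the parental arrays, at 25.1 and 20.6, lay just above tumor arrays of 8.59 to 17.6, and the change was -0.39 ± 0.17. These 4 probe sets passed the filter, and each passed only through the parental arrays, since no tumor array exceeded the 40th percentile.

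The other 3 Klf9 probe sets did not pass. Signal on 1422264_s_at was 11.8 and 16.1 in parental cells and 0.107 to 1.05 on the tumor arrays, so the groups did not overlap (change -0.85). Those on 1436763_a_at were 12.3 and 10.3 against 0.995 to 16 (change -0.32), and those on 1452723_at were 5.24 and 12.5 against 1.15 to 19.2 (change 0.0075). The last of these is annotated to the accession of 1428288_at and 1428289_at as well, so probe sets of 1 transcript accession ranged from no separation to the widest one. However, 1452723_at exceeded the 40th percentile on 0 arrays, so its lack of separation is a reading near the floor. In all, 5 of the 7 Klf9 probe sets had every tumor array below both parental arrays.

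**Figure D1:**
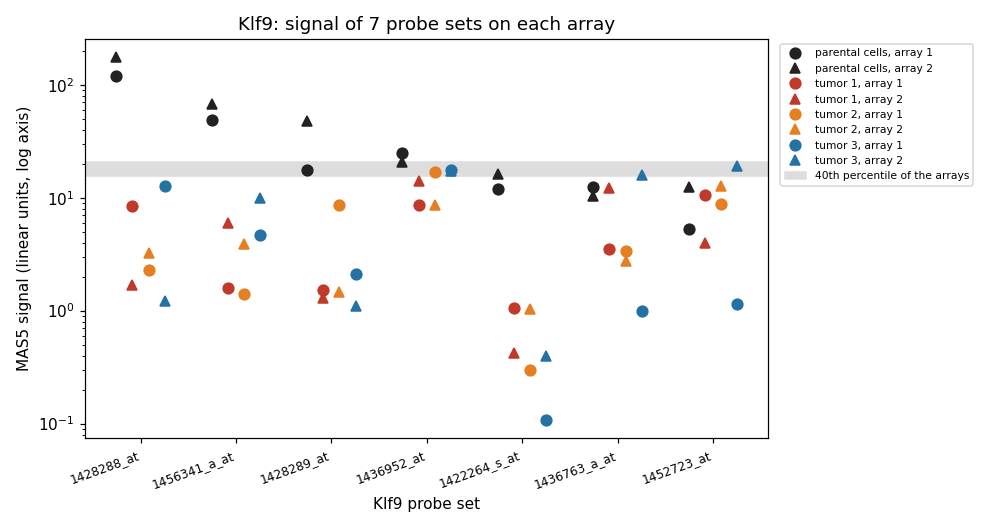
MAS5 signal of each Klf9 probe set (x axis) on a log axis, with parental cells in black, tumors 1, 2 and 3 in red, orange and blue, circles for array 1 and triangles for array 2, and a grey band for the 40th percentile of the arrays (15.6 to 20.7). On the 5 probe sets at the left the 6 tumor symbols lie below both parental symbols, and on the 2 at the right they overlap.

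Across all 26 member probe sets, 5 had the 6 tumor arrays below both parental arrays and 0 had them above, against 6.11% and 8.91% of all 22626 probe sets. Of the 16 that passed the filter, 4 lay below and 0 above, against 8.27% and 9.35% of all that passed. All 5 belong to Klf9, whose fall led to the choice of the family. The 4 that passed the filter did so only through the parental arrays, so their difference had to lie in this direction. Of all probe sets that passed the filter, 1.03% had a change of -1 or lower and 2.42% one of 1 or higher. Among the members 3 Klf9 probe sets had the former and 0 the latter. These 3 are among those 4, so neither count is a test. The same 5 were counted with quantile normalization and with median centring of the arrays. Without parental replicate 1 the count was 9, and the count above both was 1 without parental replicate 1, 3 without parental replicate 2 and 1 without the first array of tumor 1.

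The remaining genes fell into those with signal on most arrays and those near the floor. Among the 12 probe sets of Klf3, Klf5, Klf6, Klf7, Klf10 and Klf13 that passed the filter, changes in the tumors ran from -0.21 to 0.29, 7 above 0 and 5 below. In every one of these 12 the tumor arrays overlapped the parental ones.

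Klf2, which keeps lymphocytes quiescent and directs their homing, was near the floor throughout. Its 1 probe set, 1448890_at, read 16.6 and 2.50 in parental cells and 8.74 to 17 in tumors, and exceeded the 40th percentile on 1 array. Klf4, a monocyte and reprogramming factor, read 2.01 to 15.1 in parental cells and 1.42 to 11.5 in tumors over its 2 probe sets and exceeded that percentile on 0 arrays. Klf5, known from epithelial proliferation, did not exceed it on 1451021_a_at. On 1451739_at Klf5 read 14.5 and 27.9 in parental cells and 18.6 to 25.1 in tumors, a change of 0.03 ± 0.20.

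Klf3, which represses transcription through CtBP corepressors and acts in B cell development, was read by 3 probe sets. On 1431630_a_at, the one that passed, the signal was 56.6 and 90.9 in parental cells, 54.0 and 106 for tumor 1, 76.5 and 60.7 for tumor 2, and 82.0 and 82.9 for tumor 3. The tumors spanned the parental values, and the change was 0.05 ± 0.21. On 1421604_a_at the second parental array alone stood out, at 42.0 against 6.46 on the first and 0.528 to 19.6 in the tumors. Signal on 1429360_at was 11.8 and 14.4 in parental cells and 2.00 to 24.4 in tumors.

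**Figure D2:**
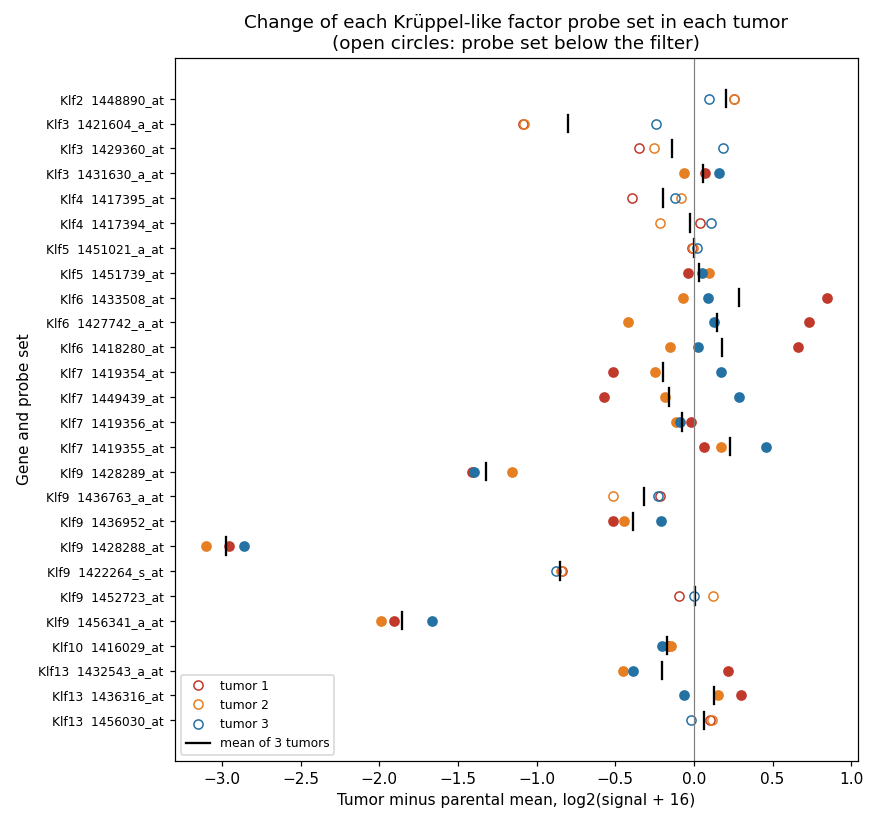
Change of log2(signal + 16) from the parental mean (x axis) for each of the 26 probe sets (y axis), with tumors 1, 2 and 3 in red, orange and blue, a black bar for their mean, and open circles for probe sets that did not pass the filter. The Klf9 probe sets reach -2.97, and the means of the other probe sets that passed lie between -0.21 and 0.29.

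Klf6 was higher on the second array of every source. This factor is induced within minutes to hours of many stimuli and in activated macrophages. On 1433508_at the signal was 69.9 on the first and 363 on the second parental array. It was 221 and 429 for tumor 1, 85.2 and 276 for tumor 2, and 131 and 234 for tumor 3. The second array was the higher one in all 4 sources, and the gap between the parental arrays was the widest. Signal on 1427742_a_at went from 51.9 to 184 in parental cells, from 141 to 221 in tumor 1, from 42.0 to 115 in tumor 2 and from 95.3 to 129 in tumor 3. On 1418280_at it went from 18.2 to 94.1, from 57.6 to 113, from 18.3 to 72.7 and from 34.2 to 61.8.

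With the source in the model, second arrays exceeded first arrays on these 3 probe sets by 1.34 ± 0.22, 0.93 ± 0.20 and 1.12 ± 0.18 (SE, 4 sources), or 2.53-fold, 1.90-fold and 2.18-fold on the scale of signal + 16. Limma's adjusted p over all probe sets was 0.0144, 0.0249 and 0.0136. Klf13, an activator of chemokine transcription in T cells, was also higher on the second arrays on 1436316_at, by 0.48 ± 0.11 (limma adjusted p = 0.0326). Its signals there were 86.4 and 119.8 in parental cells, 117 and 143 for tumor 1, 84.8 and 154 for tumor 2, and 79.3 and 117 for tumor 3. In all, 4 of the 12 probe sets of genes other than Klf9 that passed the filter were called higher and 0 lower, against 7.63% and 9.80% of all 14893. Of these 4, 3 read the same gene, Klf6, and rose together, so they are not separate members. Of all 14893, 19.6% were higher on the second array in all 4 sources. Klf10, a TGF-beta-inducible repressor, had a difference of 0.67 ± 0.20 that did not pass (limma adjusted p = 0.0556), with 127 and 304 in parental cells, 167 and 183 for tumor 1, 116 and 267 for tumor 2, and 151 and 191 for tumor 3.

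Leaving out a source lowered the number of calls. It was 2 without the parental arrays, 2 without tumor 1, 0 without tumor 2 and 3 without tumor 3. Without tumor 2 the differences of 1433508_at, 1427742_a_at and 1418280_at were 1.27, 0.84 and 1.04 with limma's adjusted p of 0.0618, 0.0927 and 0.0606. The 1427742_a_at probe set also lost its call without the parental arrays or tumor 1 (adjusted p of 0.0673 and 0.056), and Klf13 lost it in each of the 4 fits (0.0624 to 0.127).

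Tumors minus parental cells, the changes of the 3 Klf6 probe sets were 0.29 ± 0.60, 0.15 ± 0.50 and 0.18 ± 0.49. Within arrays of number 1 they were 0.82, 0.57 and 0.55 and within arrays of number 2 they were -0.25, -0.28 and -0.20, so the sign turned with the array number. Each of these values rests on 1 parental array, and the comparison was chosen after seeing the data. The macrophage and monocyte marker sum was also higher on the second array in each source, at 198 and 908 in parental cells, 829 and 3207 for tumor 1, 899 and 2002 for tumor 2, and 1460 and 2861 for tumor 3. The parental rise of that sum lay mostly in Csf1r, which read 11.5 and 555, and in Adgre1, which read 96.9 and 237. Cd68 also went from 17.3 to 39.7 and Ccr2 from 2.38 to 5.20, whereas Lyz2 read 18.5 and 16.6 and Itgam 10.5 and 8.17. Of the other markers in this list Cd163, C1qa and C1qc read at most 1.04 on the parental arrays, and C1qb read 12.1 and 20.2. The 3' to 5' signal ratio of the Actb control probe sets was lower on the second array of each source, at 1.18 to 1.25 on first and 1.06 to 1.19 on second arrays. That of Gapdh was lower on the second array in parental cells (0.769 and 0.708) and tumor 2 (0.798 and 0.7595) and higher in tumor 1 (0.744 and 0.763) and tumor 3 (0.749 and 0.759). The part of these in the Klf6 difference was not tested.

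**Figure D3:**
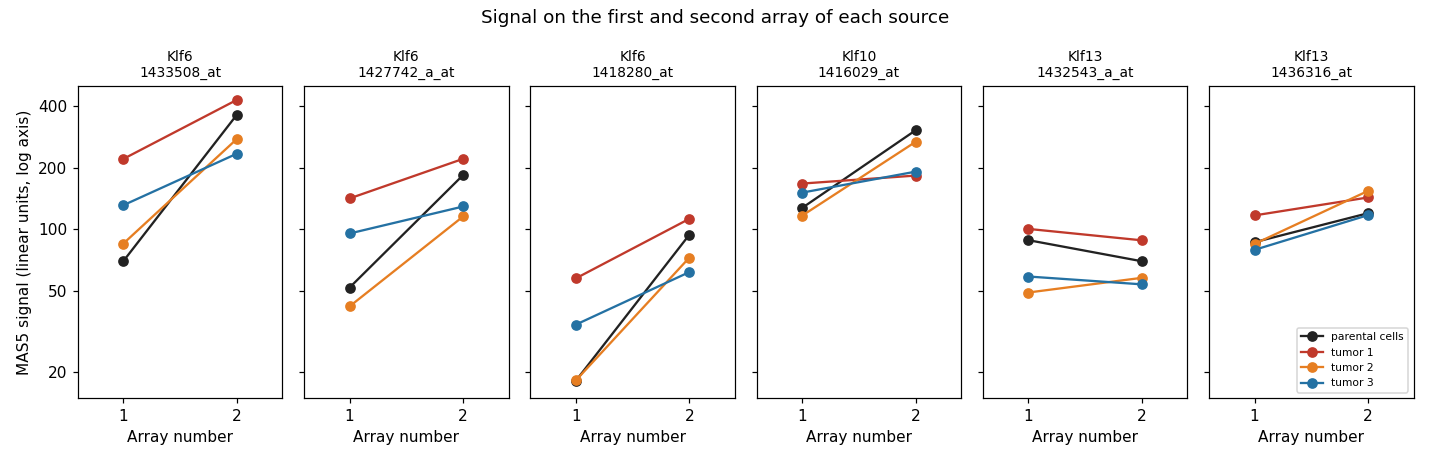
MAS5 signal (log axis) on array 1 and array 2 of each source, joined by a line, for the Klf6, Klf10 and Klf13 probe sets that passed the filter, with parental cells in black and tumors 1, 2 and 3 in red, orange and blue. All 4 lines rise in the 3 Klf6 panels, and in parental cells 1433508_at goes from 69.9 to 363.

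Among the list of 19 immediate early genes, of which 15 were measured, 2 were higher on the second arrays and 1 lower, against 7.89% and 7.99% of the 8535 genes measured. Dusp1, a MAP kinase phosphatase, was higher by 0.82 ± 0.12 (limma adjusted p = 0.0122) and the antiproliferative gene Btg2 by 0.84 ± 0.12 (0.012), while Ier5 was lower by a difference of -0.50 ± 0.10 (0.0218). Of 11 measured glucocorticoid-induced genes, 5 were higher and 3 lower. The metallothionein genes Mt1 and Mt2 differed by 1.43 ± 0.16 and 1.63 ± 0.23, Cebpd by 1.07 ± 0.14, and Fkbp5, a chaperone of the glucocorticoid receptor, by -0.61 ± 0.11 (limma adjusted p of 0.011, 0.012, 0.0116 and 0.0165). The other genes called were Dusp1, which is on this list as well, Tsc22d3 at 0.68, Zbtb16 at -0.46 and Sesn1 at -0.77. The Klf9 probe sets were too low in the tumors for this comparison. Of 9 measured growth targets of Klf4 and Klf6, 3 were lower, the cyclin gene Ccnd2 at -0.81, Odc1 at -0.63 and Myc at -0.53. Of 12 corepressors and coactivators 2 were lower, the deacetylase genes Hdac1 at -0.49 and Hdac2 at -0.57. Among 12 TGF-beta feedback genes Tgif1 at 0.99 and Skil at 0.63 were higher and Tgfb1 at -0.58 was lower, and of 8 homing and quiescence genes Btg1 at 1.29 was higher. None of the 7 measured Klf and Sp genes was called. Over the 7 lists 9 genes were higher and 10 lower, and each of these 19 lost its call without tumor 2, with adjusted p of 0.0557 to 0.151, and none changed sign. The loss was not particular to tumor 2. Without tumor 1 all but Cebpd, Mt1 and Mt2 lost their call, with limma's adjusted p of 0.0506 to 0.141. Some also lost it without tumor 3 or the parental arrays. The share of all genes called in these fits is not given.

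Differences between the 3 tumors were tested against the spread of duplicate arrays. The 4 Klf9 probe sets that passed the filter had no tumor array above the 40th percentile, so this test says nothing about them. Of the other 12 member probe sets 0 passed limma's F test over the tumors, against 1.26% of all 14893. The lowest adjusted p, 0.167, was that of Klf7 on 1449439_at. Klf7, known from neurons and blood progenitors, read there 126 and 118 in parental cells, 68.2 and 86.0 for tumor 1, 101 and 109 for tumor 2, and 142 and 162 for tumor 3. The arrays of the 3 tumors did not overlap, with parental cells between tumors 2 and 3. With the array number as a block this probe set passed (limma adjusted p = 0.0419), as 1 of these 12 against 5.28% of all, and the difference of tumor 3 from tumor 1 was 0.86 ± 0.15.

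Klf7 on 1419354_at had the same order of tumors. It read 170 and 181 in parental cells, 103 and 135 for tumor 1, 143 and 147 for tumor 2, and 210 and 190 for tumor 3, with limma's adjusted p of 0.283, or 0.0907 with the block. The 2 other Klf7 probe sets, 1419356_at and 1419355_at, had duplicate arrays of tumor 1 that spanned 46.3 to 74.2 and 26.0 to 44.3, and their adjusted p was 0.988 and 0.799. Klf7 on 1449439_at, 1419354_at and 1419356_at, and on 1419355_at, changed in the tumors as a group by -0.16, -0.20, -0.08 and 0.23.

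Klf13 on 1432543_a_at did not pass this test either. It read 88.4 and 69.8 in parental cells, 100.4 and 88.3 for tumor 1, 49.1 and 57.9 for tumor 2, and 58.8 and 53.8 for tumor 3, so tumor 1 lay above the other tumors (limma adjusted p = 0.252, or 0.0771 with the block). This order differed from that of Klf7. On 1436316_at the tumors overlapped, and 1456030_at read at most 4.56.

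**Figure D4:**
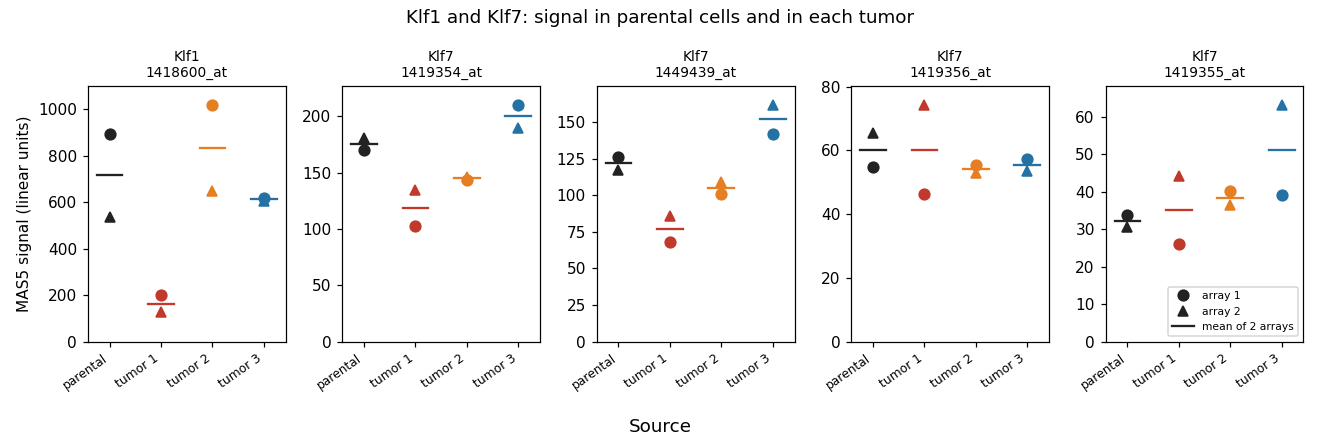
MAS5 signal (linear axis from 0) of Klf1 and of the 4 Klf7 probe sets in parental cells and each tumor, with circles for array 1, triangles for array 2 and a line for their mean. Klf1 is lowest in tumor 1, at 198 and 129, and Klf7 on 1449439_at goes from 68.2 and 86.0 in tumor 1 to 142 and 162 in tumor 3.

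Of 17 other genes of the Klf and Sp families, 7 were measured. Klf1, the erythroid factor of the family, did differ between the tumors. It read 895 and 537 in parental cells, 198 and 129 for tumor 1, 1019 and 647 for tumor 2, and 621 and 607 for tumor 3. Both arrays of tumor 1 lay below all 6 others. Tumors 2 and 3 exceeded tumor 1 by 2.23 and 1.84 (SE 0.33, limma F test adjusted p = 0.0316 over 8535 genes, of which 1.63% were called). The erythroid factor gene Gata1 was low in the same tumor, at 38.6 and 87.2 against 222 to 357 elsewhere, and the summed signal of 6 erythroid markers, Gata1 included and Klf1 left out, was 573.5 to 709.7 there against 906 to 1552 on the other arrays. Most of that sum was Tfrc, at 589 and 384 in tumor 1 and 489 to 1129 on the other arrays. Epor was also low in tumor 1, at 58.1 and 67.0 against 95.0 to 189 elsewhere. Slc4a1 was not, at 19.4 and 27.5 against 7.61 to 26.9, and Hba-a1 and Alas2 read at most 14.1 and 2.25 on any array. The part of these markers in the Klf1 difference was not tested. Klf1 lost its call without either array of tumor 1, the first array of tumor 2 or either array of tumor 3 (adjusted p up to 0.151), with no filter (0.0671) and with a pseudocount of 1 (0.0822), and its change in the tumors as a group, -0.65 ± 0.64, did not pass (0.654).

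The ubiquitous factor Sp1 had a change of -0.21 on 1418180_at and Sp3 of -0.42 ± 0.20 (limma adjusted p = 0.355). Sp4, at 74.7 and 92.1 in parental cells and 26.7 to 65.2 in tumors, had one of -0.67 ± 0.23 (0.239). Klf16, Klf17 and Sp7 had changes of 0.13, 0.24 and 0.28, and probe sets of Klf12, Klf15, Sp5 and Sp6 read at most 19.5 on any array.

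The other lists held genes that work with Krüppel-like factors or respond to the same signals. Of 71 genes measured in the 7 lists, 0 passed limma's test of tumors against parental cells in either direction, against 0.586% of all genes called higher and 0.176% lower, and 8 had an unadjusted p under 0.05, where 16.4% of all genes did. List medians were -0.21 for the other Klf and Sp genes (7 measured), 0.003 for corepressors and coactivators (12) and -0.24 for glucocorticoid-induced genes (11). They were -0.11 for homing and quiescence genes around Klf2 (8), -0.04 for growth targets of Klf4 and Klf6 (9), 0.11 for TGF-beta feedback genes around Klf10 (12) and 0.02 for immediate early genes (15), against 0.02 over all genes.

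Fosl1, an AP-1 subunit, had the lowest p of the list genes, at 19.6 and 20.3 in parental cells and 0.69 to 6.72 in the tumors. Its change was -0.97 ± 0.16 (limma adjusted p = 0.0558). It passed the filter only through the parental arrays, where it was the higher, so that any difference had to lie in this direction. Tgfbr2, a TGF-beta receptor chain, read 183 and 280 in parental cells and 314 to 537 in tumors, a change of 0.89 ± 0.21 (0.125). Sap30, a subunit of the Sin3 corepressor that Klf9, Klf10 and Klf13 can recruit, read 383 and 433 and then 201 to 326 (-0.60 ± 0.17, 0.164). The acetyltransferase gene Kat2b was at 0.50 ± 0.20 (0.282) and the homing integrin gene Itgb7 at -0.54 ± 0.24 (0.338).

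With the array number as a block, and with the spread taken between duplicate arrays rather than between mice, 11 of the 71 genes were called, 4 higher and 7 lower, against 14.6% of all genes. The higher ones were Tgfbr2 (limma adjusted p = 0.0125), Tgfbr1 (0.0352), Cebpd (0.0391) and Kat2b (0.0499). The lower ones were Fosl1 (0.00377), Tsc22d3 (0.0241), Sap30 (0.0259), the cyclin gene Ccng2 (0.0267), Odc1 of polyamine synthesis (0.0282), Sp4 (0.0351) and Klf1 (0.0357). This fit counts duplicate arrays as replicates, and in it Fosl1 could again differ only by a fall. The tumors did not move alike in Klf1, where only tumor 1 lay below both parental arrays, nor in Tgfbr1, which read 204 and 246 in parental cells and 191.6 and 298.5 in tumor 2. Among glucocorticoid-induced genes this fit put Tsc22d3 lower and Cebpd higher, with changes of -0.62 ± 0.13 and 0.66 ± 0.16. With the spread taken between mice the SE was 0.27 and 0.29, and neither gene passed (limma adjusted p of 0.323 and 0.334). In both genes the tumor arrays overlapped the parental ones.

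Klf9 lies on chromosome 19. Of its 10 nearest measured neighbours, 5 on each side, 6 had a change below 0, and the median was -0.17. By limma 0 of the 10 passed, against 0.176% of all genes called lower, and Zfand5, 1110059E24Rik and Fam122a had an unadjusted p under 0.05 (0.0165, 0.0347 and 0.0133). Zfand5 (-0.66 ± 0.21), 1110059E24Rik (-0.42 ± 0.16), Pip5k1b (-0.29 ± 0.16) and Fam122a (-0.63 ± 0.19) had every tumor array below both parental arrays, as did 8.30% of all 8535 genes. Next to Klf9 on one side stood Cemip2 at 0.30 ± 0.17 and on the other the DNA repair gene Smc5 at -0.48 ± 0.33. Tmc1, Gda, 1700028P14Rik and Cbwd1 had changes of 0.40, 0.31, 0.44 and -0.05. Over the whole chromosome, 243 of 326 measured genes (74.5%) had a change below 0, against 47.1% of all genes. Of the 326, limma called 6 lower and 2 higher, against 0.176% and 0.586% of all 8535 genes. Klf9, chosen for its fall, is itself a measured gene of this chromosome, so these counts are not free of that choice.

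**Figure D5:**
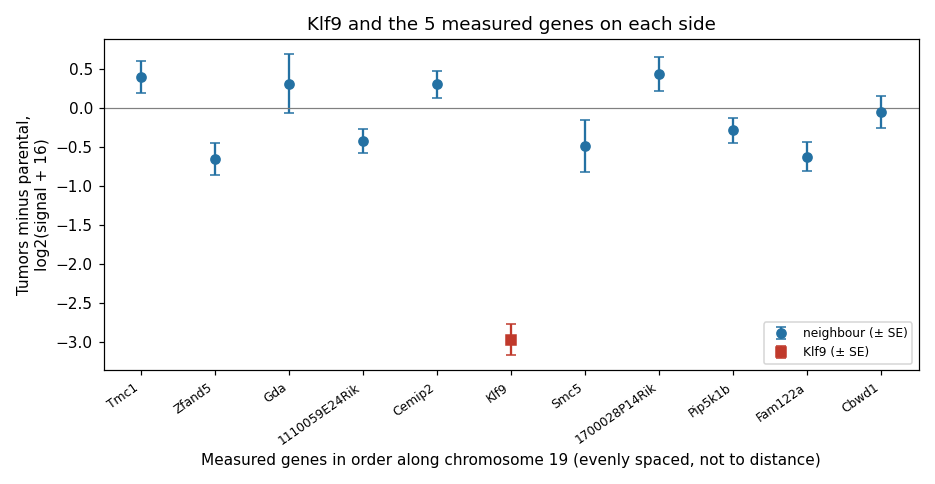
Change of log2(signal + 16) in the tumors, with its SE, for Klf9 (red square) and the 5 measured genes on each side (blue circles) in their order along the chromosome, evenly spaced. Klf9 stands at -2.97 and its neighbours lie between -0.66 and 0.44.

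Over the 8 arrays, the genes whose log2(signal + 16) was most like that of 1428288_at were Ppp1ca (Pearson's r = 0.976), Gid4 (0.976), Cops2 (0.971), Marchf6 (0.971) and Cipc (0.971). The arrays share their source in pairs, and such correlations rest mainly on the step between parental cells and tumors. Ppp1ca, a catalytic subunit of protein phosphatase 1 also on chromosome 19, read 3067 and 3082 in parental cells and 1727 to 2031 in tumors, a change of -0.72. The changes of the others were -0.29, -0.62, -0.39 and -0.65. The Klf9 probe sets 1456341_a_at, 1428289_at and 1436952_at correlated with it at 0.949, 0.906 and 0.652.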

How the data were processed

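RNA from 1 transfected FL5.12 line and 3 splenic tumors was measured on 8 arrays. The deposited values are MAS5 signal intensity, per the submitters' processing notes, and their trimmed mean was 149.984 to 149.986 on every array when 2% was left out at each end. MAS5 gives low probe sets little precision, and the number of arrays limits the precision of all values. After 64 control probe sets were left out, log2(signal + 16) was fitted with limma 3.58.1 in R 4.3.3, with p-values adjusted by Benjamini-Hochberg over all probe sets or genes and called under 0.05. A gene was read by its probe set of highest mean. Tumors against parental cells used 3 tumor means and 2 parental arrays. The difference between tumors used all 8 arrays, and the array number was tested with the source in the model. Same-numbered arrays deviated together (r of 0.435 to 0.594 in 6 pairs), so the number was also used as a block. The scripts were tested on simulated data with independent noise on each array, which lacks the shared deviation of same-numbered arrays. The probe sets of the 9 genes were described, with, of each related list, the 2 genes of lowest p and any called, the 5 genes most like Klf9, 5 neighbours on each side, and the marker highest in tumors. The members and lists were chosen with earlier results of these data known. Other pseudocounts, filters, normalizations and left-out arrays were tried.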

Additional observations from a re-analysis of the deposited data

Results flagged for a closer look

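Klf1, the erythroid Krüppel-like factor, differed between tumors by limma's F test over 8535 genes (adjusted p = 0.0316), with tumor 1 below tumors 2 and 3. Ier3, an immediate early gene, differed between tumors in the other direction (limma adjusted p = 0.0271). It read 1251 and 878 for tumor 1, 318 and 244 for tumor 2, and 401 and 282 for tumor 3, so that tumors 2 and 3 lay below tumor 1 by a difference of -1.85 and -1.59. Ier3 lost its call without either array of tumor 3 (0.0693 and 0.0822) and, among other settings, with a pseudocount of 1 (0.0734).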

How the results depend on the processing

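The change of Klf9 on 1428288_at stayed below 0 in all settings run. It was -4.96 with a pseudocount of 1, -1.61 with 64, and -2.53 and -3.41 within arrays of number 1 and number 2 alone, the last pair chosen after seeing the data. With the replicate block, 1 member probe set was called between tumors in place of 0, and 11 genes of the related lists were called between tumors and parental cells in place of 0, where the fit also took the spread between duplicate arrays in place of that between mice, so that the block's own share is not given. In those lists 1 gene, Fosl1, was called with a pseudocount of 1, with quantile normalization and with median centring. Fosl1 passed the filter only through the parental arrays, so that any difference had to be a fall. The number of member probe sets called by array number ranged from 0 to 3 when a source was left out, against 4. Leaving out an array gave 5 to 9 member probe sets with all tumor arrays below the parental ones and 0 to 3 with all above. Of the values for single probe sets and genes, 395 kept their side of the threshold or moved within the spread, 81 lost their call and 8 moved further. Signals near the floor limit the size of every Klf9 change.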
